A study of Mus musculus with 6 samples.

Results

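Secreted and membrane proteins enter the endoplasmic reticulum (ER), are folded there by chaperones and disulfide isomerases, and leave in vesicles coated with the COPII complex. Escaped ER residents that end in a KDEL-type signal are brought back by the KDEL receptors. When unfolded proteins build up, the sensors IRE1 (Ern1), ATF6 (Atf6) and PERK (Eif2ak3) start the unfolded protein response, which raises chaperone genes through XBP1 and ATF6 and, through PERK, favours translation of ATF4 and later expression of CHOP (Ddit3). Fibroblasts that secrete collagen depend on this route, since procollagen is too bulky for ordinary vesicles and needs export helpers such as TANGO1 (Mia3). The 39 genes described here cover these roles. They were chosen as a list of named genes for these roles, with earlier results of these data known. They were found by symbol, and all 39 were among the 17572 genes of the count table.

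The libraries were made from skin scars of C57BL/6 mice of wild-type (WT) genotype, 2 weeks after the operation. Hypertrophic scars (HS, n = 3) came from wounds of the upper back whose edges were stitched under tension to the rib cage, and normal scars (NS, n = 3) from wounds of the lower back closed in place with no tension. Since HS and NS differed in both tension and place on the back, the parts of these in a difference cannot be told apart. The labels used here give no age and do not tie each library to an animal of its own. The p-values therefore rest on a spread between libraries that may be only technical.

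Library totals lay between 20375395 and 27859889 counts. Levels are given in CPM, counts scaled to the library total, on which 1 count amounted to 0.04908 at most. HS replicate 2 lay closest to NS on the main axis of variation (score 10.2, against 40.5 and 57.8 in the other HS libraries and -38.7 to -33.5 in NS). The keratinocyte markers Krt5, Krt14, Krt1, Krt10 and Trp63, used as a check of the tissue, summed to 13340 to 22120 CPM in HS and 20210 to 28500 CPM in NS. Of these, Krt5 was lower in HS without overlap (log2 fold change -0.49, edgeR adjusted p = 0.0407). Krt1, Krt10 and Trp63 were lower and Krt14 higher on average, with overlapping values and adjusted p above 0.05 by edgeR.

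Part of the listed genes that fold and export secreted proteins were higher in HS, by modest amounts for most. Of 37 members with enough counts to test, 16 were higher, none was lower and 21 were not called (edgeR quasi-likelihood test, Benjamini-Hochberg adjusted p under 0.05 over all 14513 genes tested). That is 43.2% of the members, against 8.85% of all genes called in either direction (6.33% higher and 2.51% lower). The median log2 fold change was 0.36 over the members and -0.01 over all genes. At an unadjusted p under 0.05, 24 members were higher and none lower, and DESeq2 called 21 higher and none lower. All HS libraries lay above all NS libraries for 27 of the 37 (73%), against 17.2% of all genes. No member stood below NS in this way, against 15.2% of all genes, so that 32.3% of all genes were without overlap in either direction. As the members were chosen with earlier results of these data known, these shares describe the list and do not test it.

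The calls depended on single libraries. Without HS replicate 3, NS replicate 1, NS replicate 2 or NS replicate 3, no member passed (adjusted p of the 16 between 0.06443 and 0.1819), while 148, 94, 25 and 48 genes of the whole table did. In these fits 21, 20, 19 and 20 members were higher at an unadjusted p under 0.05. Without HS replicate 2, 20 members were higher, against 13.5% of all genes, and without HS replicate 1, 13 were, against 5.06% of all genes. With the replicate number as a block, 9 members were higher, against 5.03% of all genes. Hspa5, Hsp90b1, Dnajc3, Pdia3, Sec31a, Sar1a and Mia3 then lost their calls (edgeR adjusted p between 0.05173 and 0.09614). The 16 called members stayed higher in HS in all 14 alternatives, with log2 fold changes no smaller than 0.245. As none of the 16 overlapped between the groups, leaving out a library could hardly turn their sign, so the kept direction is no separate support.

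**Figure D1:**
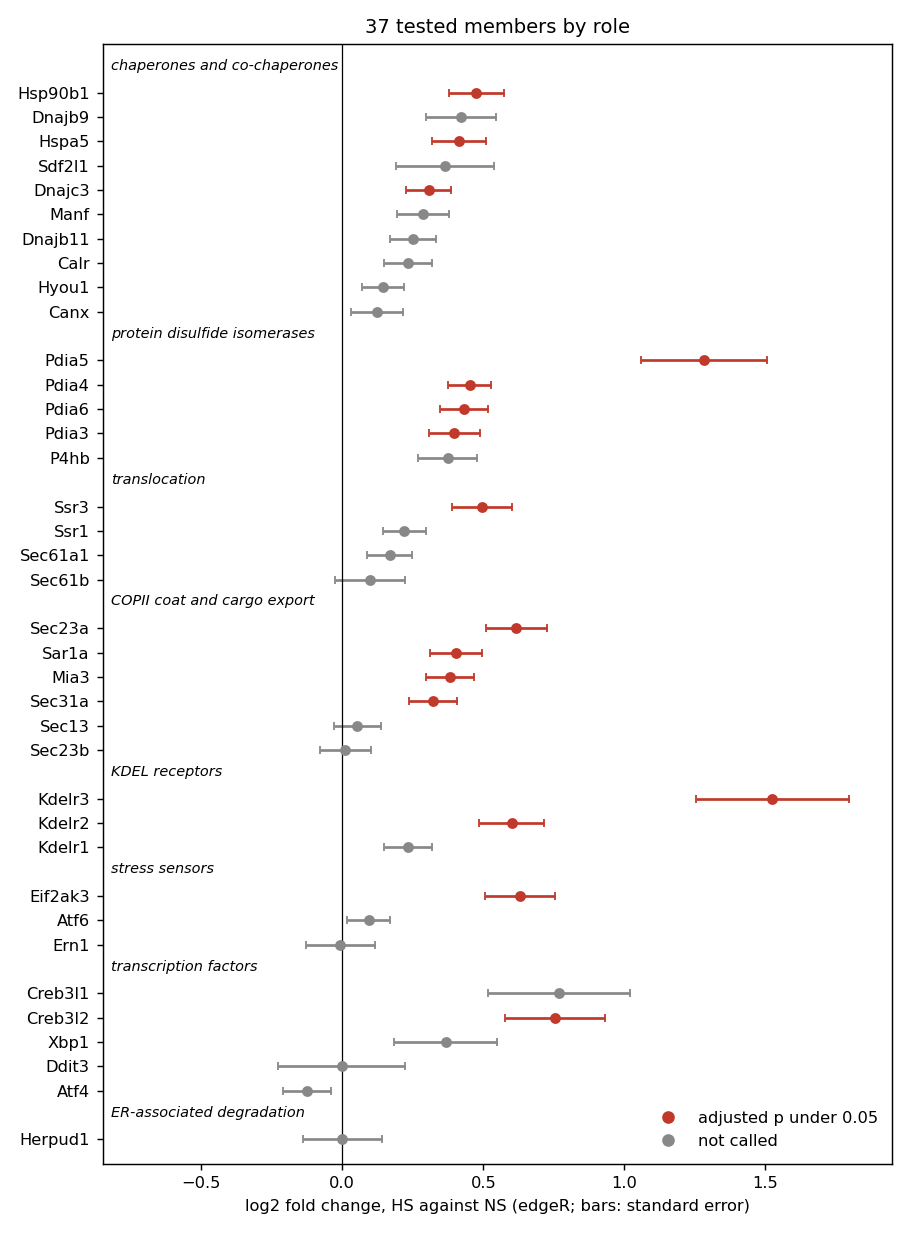
Log2 fold change of HS against NS for the 37 tested members, grouped by role, with bars of 1 standard error from edgeR. Red points are the 16 members with an adjusted p under 0.05, and Kdelr3 and Pdia5 stand furthest to the right.

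The promoters of several members carry sequence elements known from studies of the unfolded protein response. Among 300-base windows of RefSeq (build GRCm38.p6, 250 bases before to 50 after each start), 33 of the 39 members had an entry. Atf6, Creb3l1, Hyou1, Kdelr2, Manf and Sec61a1 had none. The ER stress response element (ERSE, searched on both strands as CCAAT, any 9 bases, then CCACG) was present in 6 of these 33 members. Counted per gene in the same way, it was in 17 of 10724 tested genes with a window (0.159%). Counted per window, it was in 39 of all 32851 (0.119%). Both backgrounds include the members. Since the members and the element were both picked as known parts of this response, the contrast describes the list and does not test it. The sites are shown because this spacing of 2 short boxes is the element that ATF6 reads together with the CCAAT-binding factor NF-Y. Each line reads on the strand on which the element has this spelling, with the match in capitals and 5 flanking bases on each side.
Hspa5: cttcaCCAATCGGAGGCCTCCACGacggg
Hsp90b1, far site: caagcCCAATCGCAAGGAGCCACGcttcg
Hsp90b1, near site: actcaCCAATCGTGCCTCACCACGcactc
Pdia6: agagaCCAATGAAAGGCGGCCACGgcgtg
Dnajc3: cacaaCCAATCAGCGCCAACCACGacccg
Calr: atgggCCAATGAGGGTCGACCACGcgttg
Canx: attgaCCAATCACCACGCTCCACGaagaa
The Hspa5 site lies at chr2:34772020-34772048 on the plus strand, 46 bases before the RefSeq start, and GENCODE places the start of the gene further upstream than this site. The sites of Hsp90b1 lie at chr10:86705633-86705661 (minus strand) and chr10:86705528-86705556 (plus strand), and that of Pdia6 at chr12:17266486-17266514 (plus strand). The Dnajc3 site is at chr14:118937822-118937850 (plus strand), the Calr site at chr8:84847070-84847098 (plus strand) and the Canx site at chr11:50325795-50325823 (minus strand). All 7 sites lie before the gene's RefSeq start. Of the 6 genes, Hspa5, Hsp90b1, Pdia6 and Dnajc3 were called higher in HS, while Calr and Canx were not called. The median log2 fold change was 0.36 for these 6 and 0.37 for the other tested members with a window, so members with and without an ERSE match had nearly the same median.

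Shorter elements of the same response occurred in other members. ERSE-II (ATTGG, any base, then CCACG, the box it shares with ERSE) was found in Herpud1 and Dnajb11, against 0.0365% of all windows. The unfolded protein response element (UPRE, TGACGTGG, whose last 5 letters are the reverse complement of that box), which XBP1 and ATF6 bind, was found in Kdelr3, Sec23a and Sec24d, against 0.676% of all windows. The element that ATF4 binds with C/EBP proteins (CARE, searched as TGATGNAA) was found in Herpud1 and Kdelr1, against 3.97% of all windows. Counted per gene over tested genes with a window, the shares were 0.0839% for ERSE-II, 1.03% for UPRE and 3% for CARE. As with ERSE, these shares are given for description and not as a test. The sites below are those of Kdelr3 and Sec23a, which rose in HS, and of Herpud1 and Dnajb11, which were not called. Those of Kdelr1 (not called) and Sec24d (not tested) are not shown. A link between these elements and the changes was not tested. Capitals again mark the match.
Herpud1, ERSE-II: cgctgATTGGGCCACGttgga
Herpud1, CARE: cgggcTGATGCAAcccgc
Dnajb11, ERSE-II: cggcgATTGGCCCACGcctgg
Kdelr3, UPRE: cgcggTGACGTGGcgggg
Sec23a, UPRE: cccttTGACGTGGcagag
These sites lie at chr8:94386372-94386392 (plus strand) and chr8:94386312-94386329 (minus strand) for Herpud1, chr16:22857847-22857867 (plus strand) for Dnajb11, chr15:79516373-79516390 (minus strand) for Kdelr3 and chr12:59011999-59012016 (minus strand) for Sec23a. The matches of Dnajb11 and Sec23a lie after the RefSeq start, and those of Herpud1 and Kdelr3 before it. A match is a description of the letters in this window, and binding was not measured.

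Among the luminal chaperones, Hspa5 and Hsp90b1 rose together and by similar amounts. Hspa5 encodes BiP, the ER member of the HSP70 family (chromosome 2, 34771970 to 34777547). Its level was 808, 858 and 812 CPM in HS replicates 1 to 3 and 612, 573 and 675 CPM in NS replicates 1 to 3. All 3 HS libraries lay above all NS libraries, and HS replicate 2 was the highest. The fold change was 1.33 (log2 0.41 ± 0.096, SE, adjusted p = 0.03379). With no factor beyond the library total the Hspa5 call was lost (adjusted p = 0.0608).

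Hsp90b1 encodes GRP94, the ER member of the HSP90 family (chromosome 10, 86690209 to 86705509). It stood at 853, 864 and 875 CPM in HS and 615, 569 and 680.1 CPM in NS, with the HS libraries close to each other and above each NS library. It rose 1.39-fold (adjusted p = 0.02246). Overlaps of Hsp90b1 exons with those of other annotated genes, summed over these genes, come to 15.7% of its exon length. Dnajc3, which encodes the co-chaperone P58IPK, an inhibitor of PERK (chromosome 14, 118937976 to 118981697), stood at 203, 177 and 189.6 CPM in HS against 152, 152 and 156 CPM in NS. It rose 1.24-fold (adjusted p = 0.04683), a call lost with limma-voom (adjusted p = 0.0568), with no robust step (adjusted p = 0.0511), without HS replicate 1 (adjusted p = 0.0868) and with no factor beyond the library total (adjusted p = 0.0841).

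The other 7 chaperones and co-chaperones were not called, though each had a positive log2 fold change, between 0.12 and 0.42. Dnajb9, an HSP40 partner of BiP that restrains IRE1, stood at 60.6, 46.6 and 54.1 CPM in HS and 36.9, 39.5 and 44.2 CPM in NS. Its groups did not overlap (1.34-fold, adjusted p = 0.0679), and it passed with DESeq2 (adjusted p = 0.0344) and without HS replicate 2 (adjusted p = 0.0103). The lectin chaperones differed little. Calr, the soluble calreticulin, was 1.18-fold higher (adjusted p = 0.1171, and 0.0421 with DESeq2), and Canx, its membrane-bound relative calnexin, 1.09-fold (adjusted p = 0.4259). Manf, a secreted and ER-retained survival factor, was 1.22-fold higher (adjusted p = 0.0861), and Dnajb11, a further HSP40 partner of BiP, 1.19-fold (adjusted p = 0.0861). Sdf2l1, a stress-induced ER protein that works with BiP, was 1.29-fold higher at a low level of 8.91 ± 0.561 CPM in NS (SD, n = 3, adjusted p = 0.2173). Hyou1, the nucleotide exchange factor of BiP, was 1.11-fold higher (adjusted p = 0.2508).

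Of the 5 protein disulfide isomerases, 4 rose. Pdia5, an isomerase that is known from human cells to take part in the activation of ATF6 (chromosome 16, 35397312 to 35490873), had the second largest rise of all members. It stood at 31.6, 19.5 and 27.5 CPM in HS and 8.26, 11.6 and 12.4 CPM in NS. Every HS library was above every NS library, and HS replicate 2 was the lowest of the HS libraries. The fold change was 2.43 (log2 1.28 ± 0.223, SE, adjusted p = 0.01559).

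The abundant isomerases rose less. Pdia3 (ERp57), the partner of calnexin and calreticulin, stood at 896, 900.0 and 907 CPM in HS and 680.5, 646 and 727 CPM in NS (1.32-fold, adjusted p = 0.03158, and 0.0594 with no factor beyond the library total). Pdia4 (ERp72) stood at 224, 209 and 227 CPM in HS and 159, 158 and 166 CPM in NS (1.37-fold, adjusted p = 0.01426). Pdia6 stood at 242, 241 and 262 CPM in HS and 175, 179 and 199 CPM in NS (1.35-fold, adjusted p = 0.02017). For these 3 genes the HS libraries lay close together, all above NS. P4hb is the isomerase that also serves as the beta subunit of the collagen prolyl hydroxylases. Its groups did not overlap (761, 616 and 711 CPM in HS, 510.0, 534 and 567 CPM in NS), and its 1.30-fold difference missed the threshold (adjusted p = 0.05644). P4hb passed with DESeq2 (adjusted p = 0.0115) and without HS replicate 2 (adjusted p = 0.00289).

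Per kilobase of annotated exon, Pdia3 had the highest level of the members in both groups (218 ± 12.9 CPM per kb in NS and 287 ± 1.82 CPM per kb in HS, SD, n = 3). Calr and P4hb followed in NS at 191 ± 7.62 and 188 ± 9.94 CPM per kb, which did not differ beyond their spread, and then Hsp90b1 (154 ± 13.9), Hspa5 (147 ± 12.2) and Canx (138 ± 9.28 CPM per kb), of which Hspa5 lay within the spread of both Hsp90b1 and Canx, while Hsp90b1 was above Canx in each NS library. Kdelr3 moved up most in this order of levels, from place 27 of the 39 in NS to place 15 in HS.

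**Figure D2:**
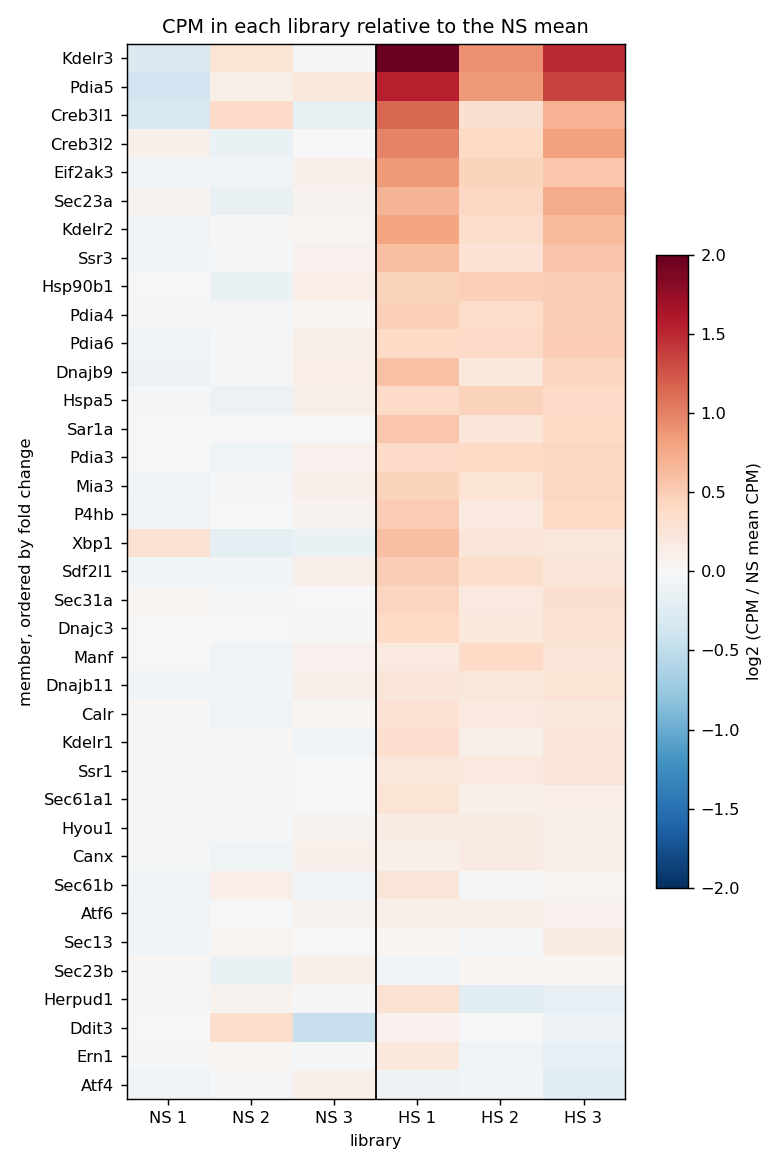
CPM of each tested member in each library, as log2 of the ratio to the NS mean (red above, blue below), with members ordered by fold change. The upper rows are red in all 3 HS libraries and for most palest in HS replicate 2, while Sec23b, Herpud1, Ddit3 and Ern1 near the bottom show no common direction and Atf4, the lowest row, is slightly below the NS mean in each HS library.

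At the translocon, the channel through which new chains enter the ER, 1 of 4 tested members rose. Ssr3, a subunit of the translocon-associated protein complex (chromosome 3, 65379655 to 65392623), stood at 570.0, 456 and 554 CPM in HS and 359, 366 and 397 CPM in NS. The groups were well apart, with HS replicate 2 nearest to NS (1.41-fold, adjusted p = 0.02681). Ssr1, a further subunit of this complex, was 1.16-fold higher without overlap (adjusted p = 0.0985, and 0.0456 with DESeq2). The channel subunits Sec61a1 (1.12-fold, adjusted p = 0.2148) and Sec61b (1.07-fold, adjusted p = 0.6647) were not called.

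Raw counts of Sec63, a membrane partner of the channel, were 15, 4 and 5 in HS and 18, 7 and 7 in NS, too few to test. Sec24d, a cargo-binding subunit of the COPII coat, had 8, 1 and 13 counts in HS and 5, 6 and 8 in NS, and was not tested either. Neither gene separated the groups. Their group means were at most 0.0532 CPM per kb, against 12.03 CPM per kb or more for Sec23a and Sec23b, which form the coat with SEC24 proteins. Whether the counting set these low values was not tested.

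Of 6 tested genes of COPII coats and cargo export, 4 rose. Sec23a, an inner coat subunit whose loss causes a collagen secretion defect in people and zebrafish (chromosome 12, 58958383 to 59012017), stood at 127, 105 and 132 CPM in HS and 82.8, 71.7 and 82.9 CPM in NS. The HS values lay clearly above the NS values (1.53-fold, log2 0.62 ± 0.108, SE, adjusted p = 0.01579). Exons of Sec23a overlap those of an antisense gene over 8.91% of their length. Its paralogue Sec23b stood at 73.1, 78.2 and 77.8 CPM in HS and 77.2, 69.2 and 80.9 CPM in NS. These values overlapped (1.01-fold, adjusted p = 0.9562), and the sign of the Sec23b difference turned with no factor beyond the library total (log2 fold change -0.047).

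Sar1a, the small GTPase that starts coat assembly, stood at 275, 222 and 249 CPM in HS and 189, 186 and 188 CPM in NS (1.32-fold, adjusted p = 0.0321). Mia3, which encodes TANGO1, the ER exit site protein that loads procollagen (chromosome 1, 183326725 to 183369553), stood at 193, 173 and 190.1 CPM in HS and 135, 140.0 and 152 CPM in NS (1.30-fold, adjusted p = 0.03005). Sec31a, the outer coat rod, stood at 250.7, 214 and 233 CPM in HS and 192, 181 and 186 CPM in NS (1.25-fold, adjusted p = 0.0479). In all 3 genes the groups were separate and HS replicate 1 was highest. The Sec31a call was lost with limma-voom (adjusted p = 0.0577), with no robust step (adjusted p = 0.0532), without HS replicate 1 (adjusted p = 0.0847) and with no factor beyond the library total (adjusted p = 0.0845). Sec13, the partner of Sec31a that is also part of the nuclear pore, was 1.04-fold higher with overlapping values (adjusted p = 0.7252), and its sign turned with no factor beyond the library total.

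The KDEL receptors differed in size of change. Kdelr3 (chromosome 15, 79516411 to 79527739) had the largest rise of all members. It stood at 71.8, 34.5 and 51.3 CPM in HS replicates 1 to 3 and at 14.99, 22.04 and 17.8 CPM in NS. The HS libraries were spread widely, and even HS replicate 2, the lowest, lay above each NS library. The fold change was 2.88 (log2 1.52 ± 0.271, SE, adjusted p = 0.02017).

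Kdelr2 (chromosome 5, 143403838 to 143421901) stood at 136, 100.2 and 122 CPM in HS and 75.1, 79.9 and 81.5 CPM in NS, with no overlap (1.52-fold, adjusted p = 0.01981). Kdelr1 (chromosome 7, 45872772 to 45883732) stood at 123, 105 and 115 CPM in HS and 99.1, 99.3 and 94.0 CPM in NS. It was 1.18-fold higher, also without overlap, and was not called (adjusted p = 0.1191), except without HS replicate 2 (adjusted p = 0.0337).

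Ratios within a library show the unequal change of related genes without any scaling between libraries. The log2 ratio of Kdelr3 to Kdelr1 counts was -0.78, -1.61 and -1.16 in HS and -2.72, -2.17 and -2.40 in NS, so that it was higher by 1.25 in HS. The ratio of Kdelr2 to Kdelr1 rose from -0.31 ± 0.0971 to 0.05 ± 0.111, and that of Sec23a to Sec23b from 0.06 ± 0.0336 to 0.66 ± 0.202 (mean ± SD, n = 3). In these 3 ratios every HS library lay above every NS library, and the exact two-sided permutation p was 0.1, the smallest that 3 against 3 libraries allow. The ratio of Calr to Canx (difference 0.11, exact permutation p = 0.2) and that of Creb3l1 to Creb3l2 (difference 0.02, exact permutation p = 0.9) overlapped between groups. With 5 ratios tested, none could pass a threshold of 0.05 before or after adjustment.

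**Figure D3:**
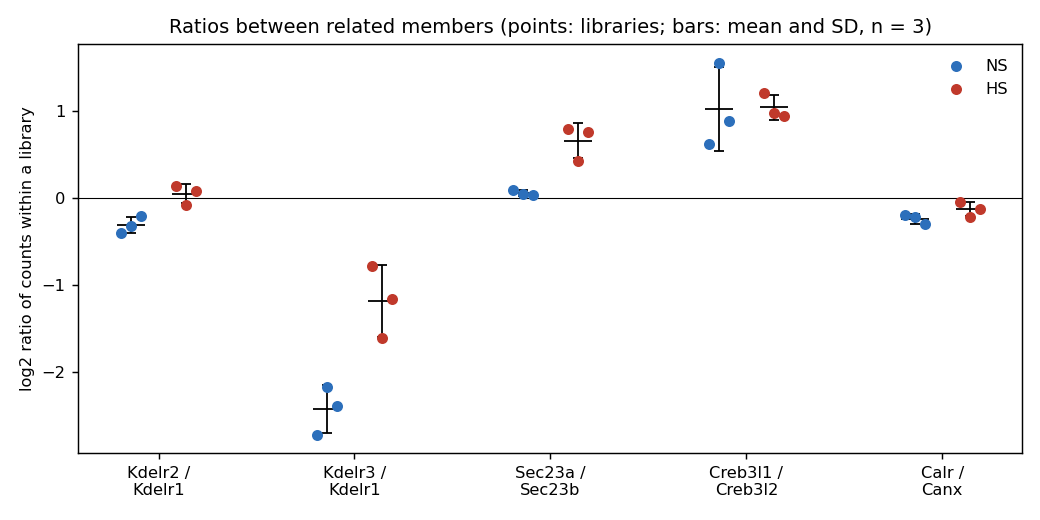
Log2 ratio of the raw counts of 2 related members within each library, with NS in blue, HS in red, and bars for the mean and SD of 3 libraries. The ratios of Kdelr2 and Kdelr3 to Kdelr1 and of Sec23a to Sec23b do not overlap between the groups, and the other 2 do.

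Of the 3 stress sensors, Eif2ak3 rose. It encodes PERK, the kinase that phosphorylates the translation factor eIF2-alpha (chromosome 6, 70844515 to 70905245). Its level was 70.5, 53.5 and 57.7 CPM in HS and 37.9, 37.5 and 42.1 CPM in NS, a 1.55-fold rise (log2 0.63 ± 0.123, SE, adjusted p = 0.02017). All HS libraries were above NS, with replicate 1 the highest. Exons of Eif2ak3 overlap those of another annotated gene on the opposite strand over 8.05% of their length.

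The other sensors were nearly level. Ern1, the kinase and RNase that splices Xbp1 mRNA (chromosome 11, 106394650 to 106487852), stood at 48.0, 38.8 and 36.8 CPM in HS and 40.7, 43.1 and 40.3 CPM in NS, with HS replicates 2 and 3 below NS (adjusted p = 0.9804). Atf6, the membrane-bound factor that is cleaved in the Golgi (chromosome 1, 170704674 to 170867771), stood at 119, 119 and 118 CPM in HS and 105, 112 and 116 CPM in NS. Its groups did not overlap, but the difference was small (1.07-fold, adjusted p = 0.4772).

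Among the transcription factors, Creb3l2 rose and its relative Creb3l1 was higher without passing. Both are membrane-bound factors cleaved like ATF6 and known for their part in collagen secretion and in the expression of coat genes such as Sec23a. Creb3l2 (chromosome 6, 37327255 to 37442146) stood at 29.2, 19.2 and 25.7 CPM in HS and 15.8, 13.4 and 14.8 CPM in NS (1.69-fold, adjusted p = 0.03481). The groups did not overlap. Its call was lost without HS replicate 1 (adjusted p = 0.0612) and with limma-voom (adjusted p = 0.0522).

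Creb3l1 (chromosome 2, 91982328 to 92024502) stood at 67.8, 38.1 and 49.6 CPM in HS and 24.3, 39.8 and 27.5 CPM in NS. HS replicate 2 lay below NS replicate 2, so the groups overlapped (1.70-fold, log2 0.77 ± 0.252, SE, adjusted p = 0.09895). Creb3l1 passed with DESeq2 (adjusted p = 0.0182) and without HS replicate 2 (adjusted p = 0.02).

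Factors of the stress response itself were not called. Atf4, the factor translated when PERK is active (chromosome 15, 80255184 to 80257541), stood at 182, 189 and 167 CPM in HS and 186, 191 and 209 CPM in NS (log2 fold change -0.12, adjusted p = 0.3882). Ddit3, which encodes the stress factor CHOP (chromosome 10, 127290774 to 127296288), stood at 10.9, 10.2 and 9.48 CPM in HS and 10.2, 13.01 and 7.47 CPM in NS (adjusted p = 0.9967). For both genes the HS and NS values overlapped. Overlaps of Ddit3 exons with those of other annotated entries, summed over the entries, come to 10.9% of its exon length. Among them are another entry named Ddit3 on the same strand and Mars on the opposite strand.

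Xbp1 (chromosome 11, 5520659 to 5525893) stood at 25.3, 19.8 and 19.7 CPM in HS and 20.4, 14.6 and 15.3 CPM in NS. NS replicate 1 lay above HS replicates 2 and 3, and the 1.29-fold difference was not called (adjusted p = 0.2358). Herpud1, an ER membrane protein of the degradation route for misfolded proteins and a common stress target (chromosome 8, 94386438 to 94395377), averaged 64.9 ± 13.5 CPM in HS against 64.9 ± 2.78 CPM in NS (n = 3, ± SD). HS replicate 1 was the highest of all libraries at 80.4 CPM and HS replicates 2 and 3 the lowest at 56.2 and 57.9 CPM. Gene-level counts do not tell spliced from unspliced Xbp1, or show the cleavage of ATF6 and the translation of ATF4, so they give mRNA amounts and not the activity of these factors.

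**Figure D4:**
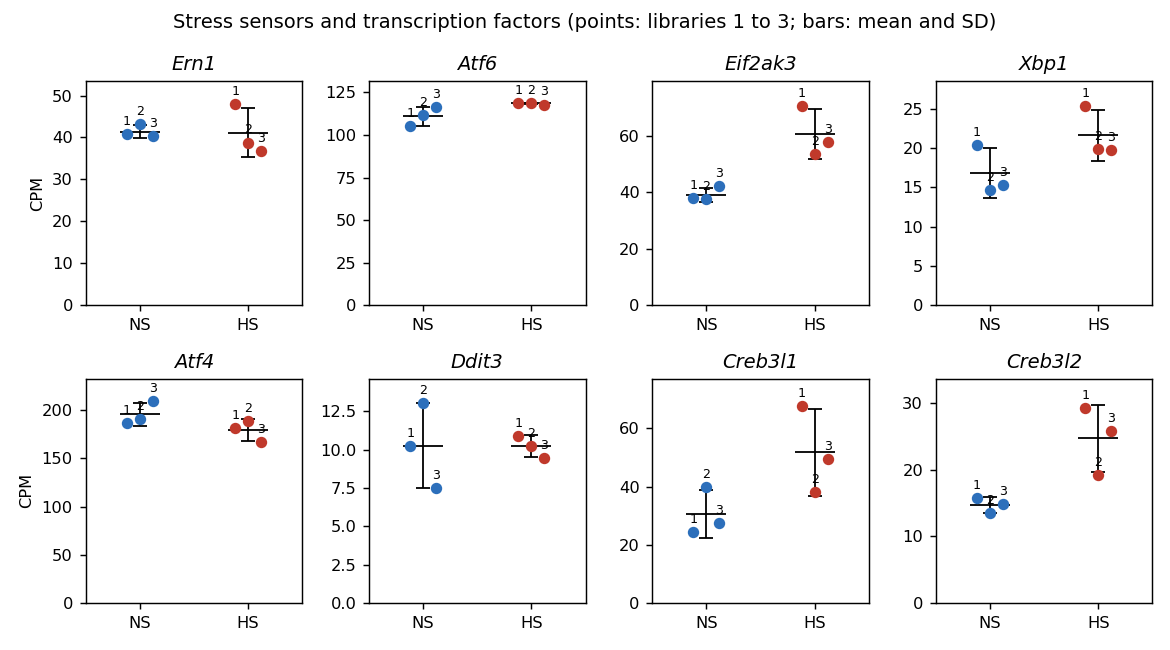
CPM of the 3 sensors and 5 transcription factors in each library (points, numbered by replicate) with mean and SD per group, on axes that start at 0. Eif2ak3 and Creb3l2 are higher in each HS library, Creb3l1 overlaps through NS replicate 2, and Atf4 and Ddit3 lie at similar levels in both groups.

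Other genes of the same route were read from 7 lists, 126 tested genes in all. Among them 11 were higher and 3 lower, 8.73% and 2.38%, against the 6.33% and 2.51% of all genes given above, and the median log2 fold change was 0.09. These shares of called genes are near the background. At an unadjusted p under 0.05, 31 of the 126 were higher and 8 lower, against 2202 and 1608 of all 14513 genes. The log2 fold change was positive for 88 of the 126, against 7068 of all 14513. The lists differed, from 25% called higher among COPI coat genes to 0% among ATF4 and CHOP targets. In none of the 7 lists was a gene called higher without HS replicate 3, NS replicate 1, NS replicate 2 or NS replicate 3.

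Of 21 further tested genes of COPII and ER export, 3 rose, with a median log2 fold change of 0.18. Lman1 and Mcfd2, which together form the cargo receptor for clotting factors, rose 1.58-fold (adjusted p = 0.02364) and 1.35-fold (adjusted p = 0.03159). The cargo receptor Tmed3, named after its values were seen, rose 1.55-fold (adjusted p = 0.04547). Of 12 tested COPI coat genes, which carry KDEL receptors back to the ER, 3 rose, with a median of 0.18. Arf4, a small GTPase of the Golgi, rose 1.48-fold (adjusted p = 0.01615) and Copz2, a coat subunit, 1.89-fold (adjusted p = 0.02006). Copb2, a further coat subunit named after its values were seen, rose 1.32-fold (adjusted p = 0.03344).

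Of 28 translocon, signal recognition and N-glycosylation genes, 2 rose, both parts of the oligosaccharyltransferase: Stt3a (1.30-fold, adjusted p = 0.02165) and Ostc (1.30-fold, adjusted p = 0.03754). Of 20 further folding and oxidation genes, 2 rose. These were Uggt2, a paralogue of the glycoprotein folding sensor (2.06-fold, adjusted p = 0.02327), and Dnajc10, a disulfide reductase (1.27-fold, adjusted p = 0.04744). Of 14 ER-associated degradation genes, 1 rose, the ubiquitin-conjugating enzyme Ube2j1 (1.29-fold, adjusted p = 0.03756). None of 13 relatives and activators of the sensors was called by edgeR (1 higher and none lower at an unadjusted p under 0.05, and 1 higher with DESeq2).

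Of 19 tested targets of ATF4 and CHOP, none rose and 3 fell (15.8%, against 2.51% of all genes), with a median log2 fold change of -0.18. At an unadjusted p under 0.05, 1 was higher and 7 were lower, against 2202 and 1608 of all 14513 genes. DESeq2 called 1 higher and 4 lower. Slc7a5, a transporter of large neutral amino acids, stood at 42.9, 58.1 and 56.2 CPM in HS and 90.4, 86.8 and 79.7 CPM in NS (log2 fold change -0.71, adjusted p = 0.0159). Psat1, an enzyme of serine synthesis, stood at 106, 126 and 108 CPM in HS and 142, 150.1 and 174 CPM in NS (log2 fold change -0.46, adjusted p = 0.03337). Slc3a2, the partner chain of the Slc7a5 transporter, named after its values were seen, stood at 86.5, 83.1 and 84.2 CPM in HS and 104, 126 and 107 CPM in NS (log2 fold change -0.41, adjusted p = 0.03344). In each of these genes all HS libraries were below all NS libraries. None of the list was called lower without HS replicate 3 or without any 1 of the NS libraries, and 5 were without HS replicate 2.

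Well-known CHOP and ATF4 targets without a call, named after their values were seen, included Trib3 (log2 fold change -0.36, adjusted p = 0.5172), Chac1 (-0.02, adjusted p = 0.9613), Asns (-0.28, adjusted p = 0.1693) and Ppp1r15a (-0.09, adjusted p = 0.7052). Atf3 was 1.53-fold higher with overlapping values (adjusted p = 0.2307). The cystine transporter Slc7a11 was 1.59-fold higher without overlap and missed the threshold (adjusted p = 0.05383). A CARE match stood in the promoter window of 6 of the 17 genes of this list with an entry (Asns, Atf3, Chac1, Nupr1, Slc7a11 and Trib3), none of which was called.

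**Figure D5:**
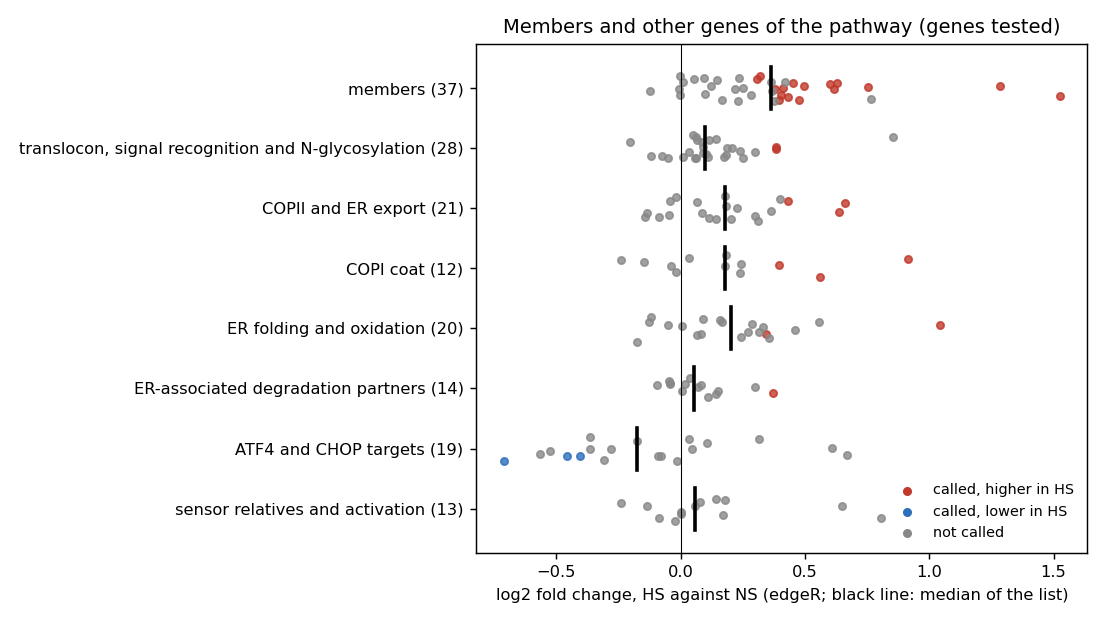
Log2 fold change of HS against NS for each tested gene of the members and of 7 further lists, with red for called higher, blue for called lower, grey for not called and a black line at each list's median. The median of the members is 0.36, and the list of ATF4 and CHOP targets has a median below 0 and all 3 blue points.

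Cell type markers moved between the groups as well. In bulk tissue, more cells of a type and more RNA per cell cannot be told apart. Of 6 fibroblast markers (Col1a1, Col1a2, Col3a1, Pdgfra, Lum and Dcn), 5 were called higher, and their summed level was 54420, 25890 and 42970 CPM in HS replicates 1 to 3 against 11020 to 14050 CPM in NS. HS replicate 1 was highest and HS replicate 2 lowest in this sum. The same order of HS libraries held for 10 of the 16 called members (62.5%), for 66.9% of all genes called higher and for 27.4% of all tested genes, so the called members were near the share of called genes at large. Over all 37 tested members this order held for 18 (48.6%), and for 8 of the 21 not called (38.1%). Hspa5, Hsp90b1, Pdia3, Pdia4, Pdia6 and Sec23a did not follow it. Over the 37 tested members the median log2 difference from the NS mean was 0.40, 0.23 and 0.30 in HS replicates 1 to 3, against values between -0.01 and 0.00 over all genes.

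Endothelial markers (3 of 4 called higher) summed to 219 to 370 CPM in HS and 120 to 126 CPM in NS. Neutrophil markers (both tested ones higher) summed to 90.8 to 340 CPM in HS and 10.5 to 15.5 CPM in NS, with Ly6g at 0 in all NS libraries and in HS replicate 2. Almost all of this sum came from S100a8 and S100a9. Csf3r reached 1.58 CPM at most and Ly6g 0.489 CPM at most, and neither was tested. Macrophage markers summed to 269 to 701 CPM in HS and 243 to 272 CPM in NS (none of 3 tested called, by edgeR). Mast cell markers (3 of 4 higher) summed to 180 to 221 CPM in HS and 146 to 157 CPM in NS. The macrophage sum of HS replicate 2 lay within the NS range, while the endothelial, neutrophil and mast cell sums did not overlap between the groups. Of the macrophage markers, Mrc1, the largest part of the sum, and Csf1r overlapped. Adgre1 (2.30-fold, edgeR adjusted p = 0.0850) and Cd68 (2.26-fold, edgeR adjusted p = 0.0844) were above NS in each HS library.

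Plasma cells, which hold much ER, were read from 6 B and plasma cell markers. Jchain, the joining chain of secreted antibodies, was higher in HS (6.83 ± 3.32 against 1.02 ± 0.238 CPM, SD, n = 3, adjusted p = 0.01093), while Ms4a1 was at 0 in 5 of the 6 libraries, Mzb1 and Cd79a stayed below 0.5 CPM, and their sum was almost wholly Sdc1, which keratinocytes also express. That sum was 385 to 438 CPM in HS and 475 to 527 CPM in NS.

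Markers of epithelial appendages were lower in HS. Hair follicle markers (2 of 5 called lower) summed to 14600 to 17840 CPM in HS and 20580 to 23960 CPM in NS, and sebaceous markers (3 of 5 lower) to 418 to 427 CPM in HS and 518 to 640 CPM in NS. Adipocyte markers (none of 4 called) summed to 174 to 327 CPM in HS and 210 to 227 CPM in NS. Skeletal muscle markers (1 of 5 higher, 1 lower) summed to 2700 to 5239 CPM in HS and 2682 to 2781 CPM in NS. The part of any of these cell types in the values of the secretory genes or of the ATF4 targets was not tested.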

How the data were processed

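RNA sequencing of 6 mouse skin scar libraries (3 HS, 3 NS) was analysed. Per the labels' protocols, RNA was depleted of ribosomal RNA and read as 150 bp paired ends. The authors' deposited table holds unnormalized counts for each gene. The tools named, per the submitters' processing notes, are HTSeq 0.9.1, HISAT2 2.0.4, cutadapt 1.9.3 and edgeR, and the build mm10. Whether strand was used was not given in the sources used here, so reads of overlapping genes cannot be assigned by strand. Exons of 12 of the 39 members overlap another annotated gene. The 6 columns of normalized values were not used.

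Counts were tested with edgeR 4.0.16 (R 4.3.3): filterByExpr (minimum count 10), which kept 14513 of 17572 genes, TMM scaling, and a robust quasi-likelihood fit with the group as the only term, with Benjamini-Hochberg adjustment over all tested genes at 0.05. The procedure was run on simulated counts with the same dispersion for every gene, a simpler setting than these data. The check required there was only that log2 fold changes of strongly changed genes followed those put in. CPM use TMM-scaled totals. Levels per kilobase use the union of exons in GENCODE M21, the source of gene coordinates (GRCm38, 1-based). Log ratios used a prior count of 0.5. Promoter windows are from RefSeq. Chi-square per gene between libraries of a group was 14.2 to 107, and no library repeated another.

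The rule for naming genes took all members and, from 7 other lists, the 2 called genes with the smallest p per list. Members, lists and motifs were chosen with earlier results of these data known. Alternatives were other size factors, no factor, other filters, the replicate number as a block, no robust step, DESeq2 1.42.0, limma-voom (limma 3.58.1), each library left out, and for ratios a prior count of 5.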

Additional observations from a re-analysis of the deposited data

How the results depend on the processing

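The number of genes called over the whole table was 1284, and 2435 with DESeq2, between 25 and 3257 when 1 library was left out. The number of members called higher was 16, between 0 and 20 when 1 library was left out, and between 12 and 21 with other scaling, filters, dispersion or tools. Without any factor beyond the library total, which moved the median log2 fold change of all genes from -0.01 to -0.07, 61.4% of all calls were higher. No alternative called a member lower. Whether the replicate numbers pair the samples is not known, as the labels give no pairing. Deviations of same-numbered libraries from their group means correlated at 0.018, 0.0133 and 0.036, and 5 of 6 libraries correlated best with their own number. With 3 libraries per group these values cannot decide it. With the replicate number as a block, 9 members, 1 of the 3 lower ATF4 and CHOP targets (Slc7a5) and 1001 genes in all were called. The members then not called were Hspa5, Hsp90b1, Dnajc3, Pdia3, Sec31a, Sar1a and Mia3. The cause of these changes was not tested.

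The sign turned for 5 members with small differences, none called in any fit. The Sec23b log2 fold change was -0.047 and the Sec13 log2 fold change -0.0053 with no factor beyond the library total. The Ddit3 log2 fold change was 0.029 with the replicate block, 6.49e-05 with DESeq2 and 0.049 with limma-voom, and the Herpud1 log2 fold change was 0.0018 with the DESeq2 size factors and 0.0018 with DESeq2. When 1 library was left out, the value for Sec23b ran from -0.056 to 0.053, the Ern1 log2 fold change from -0.13 to 0.068, Ddit3 from -0.20 to 0.20 and Herpud1 from -0.18 to 0.091, and the difference in the ratio of Creb3l1 to Creb3l2 from -0.18 to 0.29. The other 4 ratios kept their direction. Fewer libraries leave fewer degrees of freedom, and the precision of low genes such as Sec63 and Sec24d is limited by depth.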
